A study of Ovis aries with 3 samples.

Results

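This report describes the protein-coding transcripts of the sheep intestine that were found in the duodenum and were nearly absent from the large intestine. Sheep (Ovis aries) of the small-tailed Han strain were sampled in 3 regions, the duodenum, the cecum and the colon, and total RNA of the mucosal epithelium was sequenced as 1 pooled library per region from 3 ewes. The same ewes, 11 months old and with no treatment given in the labels, supplied all regions, so the region is the only label that separates the libraries, and differences between animals cannot be seen in the pools. Expression was measured as RPKM, the reads of a transcript scaled to the length of its exons and to the read total of the library. A transcript was taken when its RPKM was at least 10 in the duodenum and at most 0.5 in both the cecum and the colon. Of transcripts that shared an exon only the first by identifier was taken, and 5 transcripts named in the rule were set aside. The limits held for 159 of the 68818 annotated messenger RNA transcripts in the files, 66 were left after the shared exons were considered, and 62 remained after the set-aside transcripts were removed.

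These RPKM values chose the transcripts, so every difference between duodenum and large intestine given for them below is a description and was not tested. With 1 pooled library per region there was also no replicate error. Each interval below is a 95% interval that covers the sampling of reads only. It treats the summed counts, rounded, as separate reads, but a read can count on several exons, so the intervals may be too narrow. In pooled tissue, fewer cells of a type and less RNA per cell cannot be told apart.

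The duodenum is the first part of the small intestine, where food from the stomach meets bile and pancreatic juice. Its absorptive cells carry microvilli with digestive enzymes and carriers for peptides, amino acids and sugars, pack dietary fat into lipoprotein particles, and take part in the oxidation, conjugation and export of foreign compounds. The cecum and the colon of ruminants ferment what is left and absorb water, salts and short-chain fatty acids. Some nutrient carriers of the small intestine are known to be low there.

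Summed over the 62 transcripts, RPKM was 2814 in duodenum, 5.76 in cecum and 5.54 in colon. Exons of some of them overlap, as described below, and with only the longest transcript of each overlapping group the sums were 2157, 5.57 and 5.36 RPKM. Set against the read total of the library, their exon reads came to 0.521% in duodenum, 0.00173% in cecum and 0.00165% in colon. No interval is given for these ratios, since the reads summed over all exons of a library exceed its read total and a read can count on several exons. Single transcripts ranged from 10.1 to 333 RPKM in the duodenum with a median of 18.9, while the median was 0.0396 in the cecum and 0.0544 in the colon. Only 7 transcripts reached 100 RPKM in the duodenum, 11 reached 50 and 29 reached 20, and the 15 highest held 70.6% of the summed RPKM (67.8% with the longest transcript of each overlapping group). Transcripts within these limits made up 0.36% of the 15836 messenger RNA transcripts that reached 1 RPKM in any region, each shared exon counted once, and those with at least 20-fold higher RPKM in the duodenum made up 1.2% against the cecum and 1.29% against the colon.

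Most of these transcripts still had a few reads in the large intestine. Reads were found in both the cecum and the colon for 43 of 62, in neither for 8, in the colon only for 8 and in the cecum only for 3. The 8 without reads in the large intestine were CES3, PRLH and 6 unnamed transcripts, among them XM_012095545.1 with 24.3 RPKM in the duodenum, XM_012096115.1 with 18.8 and XM_004004464.2 with 10.2. Numbers were small: under 3 reads were found for 23 transcripts in cecum and for 18 in colon. Where a region had 0 reads, 3 reads stood in as the floor of detection. The fold is then a value at that floor, and the lower limit of its interval is smaller. Counts above 0 but under 3 reads were used as they were, so folds on them can exceed a fold at the floor. Counted this way, the median fold of duodenum over cecum was 423, between 31.3 and 7253. Over the colon the median was 401, between 36.4 and 16640. The lowest values are folds at the floor. The highest rest on 1 read each, that of LOC101119842 over the cecum (interval 1301 to 286513) and that of LOC101111965 over the colon (2986 to 657322). The duodenum was at least 100-fold higher than the cecum for 54 transcripts and than the colon for 53, where 0.638% and 0.606% of the 15836 transcripts reached that fold. The limits themselves require at least 20-fold, so these counts describe the set and do not test it.

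**Figure D1:**
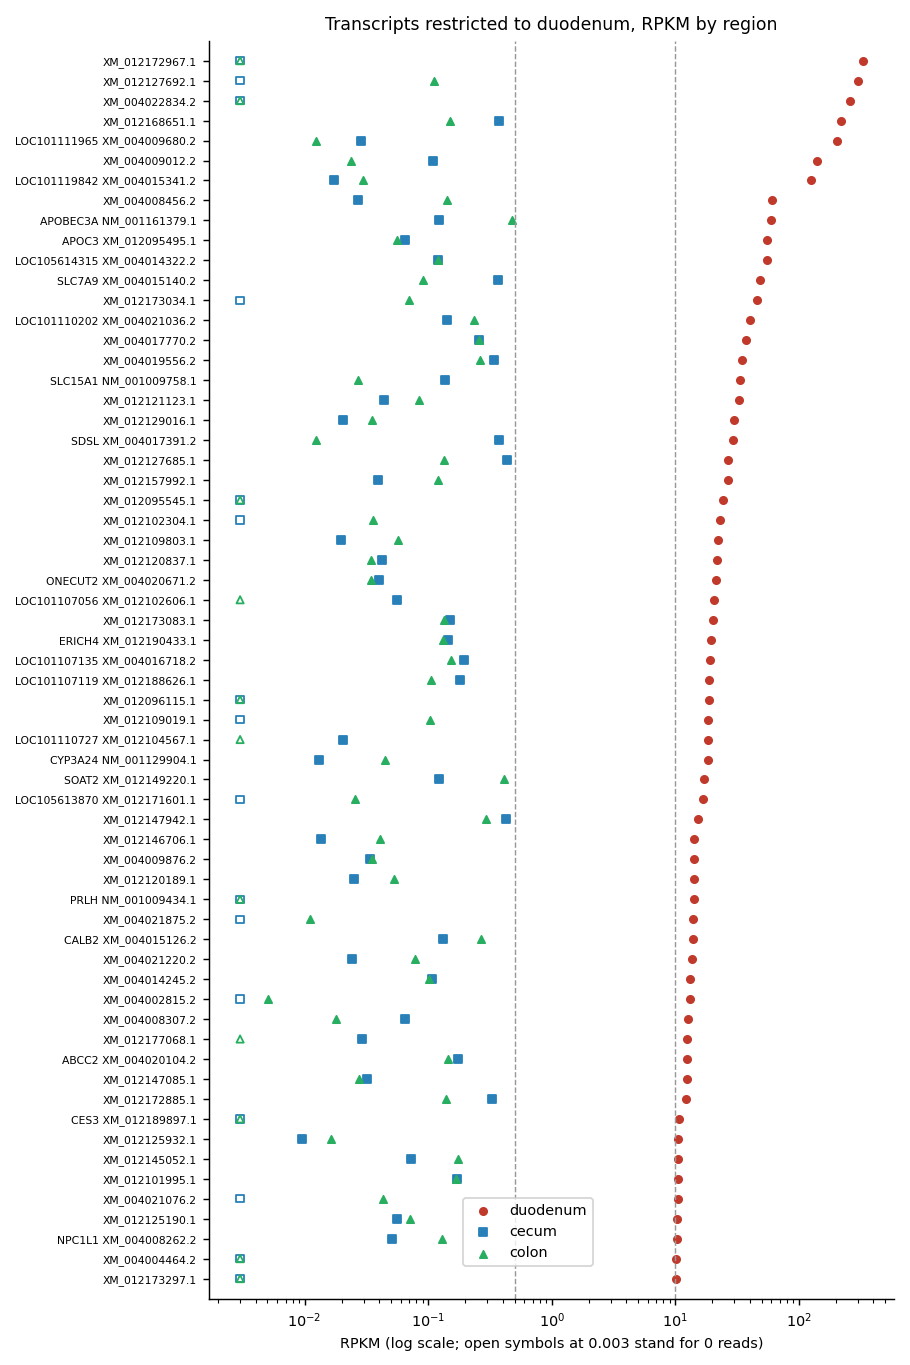
RPKM (log scale) of the 62 transcripts in the pooled duodenum, cecum and colon libraries, 1 point per library, ordered by the duodenum value. Dashed lines mark the limits of 10 and 0.5 RPKM, open symbols stand for 0 reads, and cecum and colon points lie between 0 and 0.480 RPKM for every transcript, as the limits required.

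A symbol could be paired with 23 of the 62 transcripts, 17 by their own identifier. The other 6 took it from a transcript of the same locus, where transcripts are joined directly or in a chain by shared exons. Of these symbols 9 are provisional (LOC) and 14 are gene names. Pathway lists of the study held 18 of the 62, 12 by their own identifier and the rest through a transcript of the same locus. Of these, 7 had no symbol, and 32 transcripts had neither a symbol nor a list. The study drew its pathway lists from transcripts that differed between regions both in these libraries and in Texel libraries, which were not analysed here. A place in one of them says what a transcript is thought to do. Since these libraries helped to choose it, that place gives no independent evidence for its direction here.

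Carriers of protein digestion products were present among the named transcripts. SLC15A1, the proton-coupled carrier that takes up di- and tripeptides, had 33.2 RPKM in duodenum, 0.137 in cecum and 0.0272 in colon. This was 243-fold over the cecum (154 to 425) and 1224-fold over the colon (477 to 4483). All 25 of its exons were higher in the duodenum, where exon RPKM lay between 12.3 and 55.2. SLC7A9, the light subunit of the exchanger that imports cystine and basic amino acids, had 48.5 RPKM in duodenum, 0.369 in cecum and 0.0909 in colon. The residual level of both carriers was higher in the cecum than in the colon. The ratio of cecum over colon was 5.03 for SLC15A1 (1.61 to 20.2) and 4.06 for SLC7A9 (2.0 to 10.1), and these ratios compare 2 single libraries.

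Transcripts of fat and cholesterol handling formed the next group, with 5 members. NPC1L1, the protein through which cholesterol enters the absorptive cell, had 10.3 RPKM in duodenum, 0.0510 in cecum and 0.130 in colon. SOAT2, which esterifies the absorbed cholesterol, had 17.1, 0.123 and 0.409 RPKM in the same order. A transcript of APOC3, an apolipoprotein of triglyceride-rich particles, had 55.6, 0.0646 and 0.0556 RPKM. LOC101107135, placed by the study under fat digestion and glycerolipid metabolism, had 19.1, 0.194 and 0.153 RPKM. The longest transcript of all, XM_012121123.1 with 14082 bases in 29 exons, had 32.9, 0.0437 and 0.0844 RPKM. Its locus holds transcripts that the study placed under fat digestion, vitamin digestion and cholesterol homeostasis. Within the group the duodenum level of these single transcripts thus ranged from 10.3 RPKM for that of NPC1L1 to 55.6 RPKM for that of APOC3. The levels over whole loci differ and are given below.

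The reads of these lipid transcripts were not spread alike over their exons. For APOC3, 2 exons with 264 and 95.6 RPKM carried nearly all reads of the duodenum, and the other 3 exons had 0.331, 0.358 and 4.83 RPKM. The locus of APOC3 as a whole, over 7 transcripts, had 109 RPKM in the duodenum, and 1 of the set-aside transcripts belongs to it. For SOAT2, exon RPKM in the duodenum was 6.80 to 49.9, but 80.1% of its reads in the cecum and the colon lay on 1 exon, the seventh, which had 0.786 RPKM in cecum and 2.48 in colon. The exons 8 to 11 of SOAT2 had no reads in either.

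**Figure D2:**
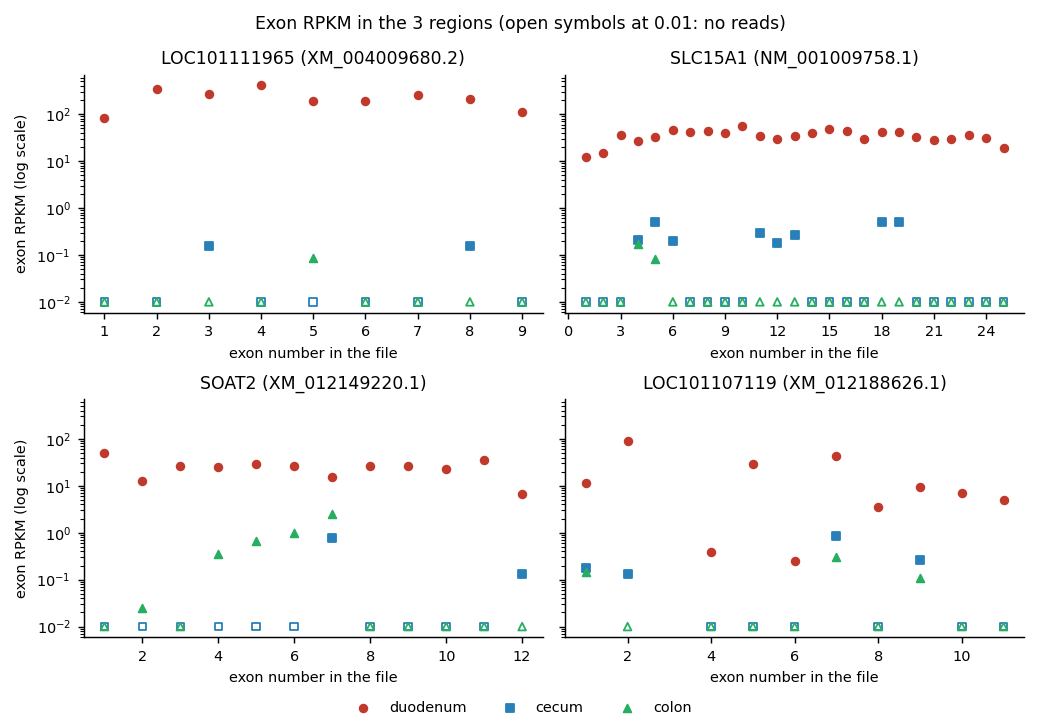
Exon RPKM (log scale) against the exon number in the file for 4 transcripts, with 1 point per exon and library. Duodenum values of SLC15A1 stay between 12.3 and 55.2 over its 25 exons, the large intestine reads of SOAT2 pile up on exon 7, and the duodenum values of LOC101107119 run from 0.249 to 91.9.

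Enzymes and exporters of drug, retinol, steroid and arachidonic acid metabolism were the largest annotated group, with 11 transcripts. CYP3A24, a cytochrome P450 of the family that oxidises steroids and many drugs, had 18.3 RPKM in duodenum (1550 reads), 0.0130 in cecum (1 read) and 0.0446 in colon (4 reads). LOC101110202 had 40.4, 0.142 and 0.236 RPKM, and LOC101110727 had 18.4 and 0.0204 RPKM in the duodenum and the cecum with 0 reads in the colon. The study placed all 3 under linoleic acid metabolism, and both LOC transcripts also under retinol and steroid hormone metabolism. By position they lie next to each other: LOC101110202 was 12.0 kb from LOC101110727 and 50.4 kb from CYP3A24, and in the reference annotation the 3 share a chromosome with 1 gene between either pair of neighbours. The methods name RSEM, which allots reads that fit several similar copies by estimation, whereas the counts are headed as unique reads. How such reads were handled here is not known, so the separate levels of the 3 are uncertain.

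ABCC2, an export pump for conjugated compounds, had 12.4 RPKM in duodenum, 0.174 in cecum and 0.146 in colon. CES3, a carboxylesterase, had 10.7 RPKM (872 reads) in the duodenum and 0 reads in both other regions. At the floor of 3 reads its fold was 265 over the cecum and 308 over the colon. The lower interval limits of these folds were 215 and 250. LOC101119842, listed by the study under bile secretion and xenobiotic metabolism, was among the highest, with 126 RPKM from 7961 reads in the duodenum against 1 read in cecum and 2 in colon. XM_004009876.2, listed under glucuronate interconversion and drug metabolism, had 14.2, 0.0336 and 0.0350 RPKM. For ABCC2 the reads of the large intestine came largely from the last exon, which held 72.9% of them, at 0.226 RPKM in the cecum and 0.207 in the colon against 8.70 in the duodenum.

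A pair in this group lay 106 kb apart, and the loci of both hold transcripts that the study listed under arachidonic acid metabolism. XM_004008456.2 had 60.7, 0.0272 and 0.141 RPKM, and LOC105613870 had 16.8 RPKM in the duodenum, 0 reads in the cecum and 0.0258 RPKM in the colon. LOC101107119 was listed under both arachidonic acid and steroid hormone metabolism, and its transcript had 18.8, 0.182 and 0.105 RPKM.

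The highest value of all belonged to a short transcript, and 3 of the 7 transcripts above 100 RPKM overlapped by position. XM_012172967.1, with 333 RPKM in the duodenum and 0 reads elsewhere, is 182 bases long in 2 exons. Its first exon of 5 bases held 777 reads and had 3057 RPKM, and its second of 177 bases had 256 RPKM. XM_004022834.2, a single exon of 176 bases with 259 RPKM and 0 reads elsewhere, overlaps it over 176 bases. By position both lie within the sixth exon of LOC101111965, which runs from 25339782 to 25358941 in the numbering of the files (no chromosome or genome build is given) and has 262 bases in that exon. LOC101111965 itself had 204 RPKM in the duodenum from 15715 reads over 9 exons, with 2 reads in cecum and 1 in colon. Its folds, 7159 over the cecum (1981 to 59117) and 16640 over the colon (2986 to 657322), therefore rest on 3 reads of the large intestine. All 9 exons were well covered, at 84.1 to 410 RPKM, and the sixth had 191. The study listed the short XM_004022834.2 under glycolysis, fatty acid degradation, retinol and drug metabolism. That exon held 2545 reads in the duodenum, beside 2319 for XM_004022834.2 and 2300 for the second exon of XM_012172967.1. Whether the same reads were counted in all 3 could not be checked without the chromosome and the reads.

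Sugar digestion was represented by 2 transcripts without a symbol. XM_004008307.2, with 48 exons and listed under carbohydrate digestion, galactose and starch and sucrose metabolism, had 12.6, 0.0649 and 0.0181 RPKM. XM_012095545.1, listed under starch and sucrose metabolism, had 24.3 RPKM from 2462 reads in the duodenum and 0 reads in both other regions. At the floor of detection its fold was 748 over the cecum and 869 over the colon. The lower interval limits of these folds were 608 and 706.

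Among the regulators, ONECUT2, a homeodomain transcription factor, was the only member of the list of regional transcription factors. It had 21.5 RPKM in duodenum, 0.0398 in cecum and 0.0343 in colon, from 14222 reads in the duodenum and 24 reads in each of the others. An unnamed model, XM_012120837.1, covered the same place over 13008 bases and had 21.7 RPKM. Of peptide hormones, PRLH, the prolactin-releasing hormone, had 14.1 RPKM in the duodenum and 0 reads elsewhere, but only 1 exon of 144 bases was seen and it held 103 reads, the fewest of any of the 62. Its folds at the floor, 31.3 over the cecum and 36.4 over the colon, are set by that number of reads. The lower interval limits of these folds were 25.0 and 29.0. The smallest folds with reads in the region compared were 35.4 over the cecum, for XM_012147942.1, and 41.8 over the colon, for SOAT2. The 1 exon of XM_012147942.1 was covered over only 38.2% in duodenum, 36.3% in cecum and 33.9% in colon. For SOAT2 most reads of the large intestine lay on 1 exon, as given above.

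The other named transcripts had varied roles. APOBEC3A, a cytidine deaminase of antiviral defence from a family with similar copies, had 59.4 RPKM in duodenum, 0.123 in cecum and 0.480 in colon, the highest colon value of the 62. CALB2, the calcium-binding protein calretinin, had 13.9, 0.132 and 0.267 RPKM. SDSL, an enzyme related to serine dehydratase, had 29.5, 0.373 and 0.0124 RPKM, with 25.8 reads in cecum and 1 in colon. ERICH4 had 19.6, 0.146 and 0.132 RPKM, LOC105614315 had 55.5, 0.119 and 0.12, and LOC101107056 had 20.6 and 0.0561 with 0 reads in the colon. The residual level in the large intestine thus did not fall on the same side for all: RPKM was higher in the cecum for 26 transcripts and in the colon for 28. For SOAT2 the ratio of cecum over colon was 0.301 (0.143 to 0.568), in contrast to SDSL and the nutrient carriers.

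**Figure D3:**
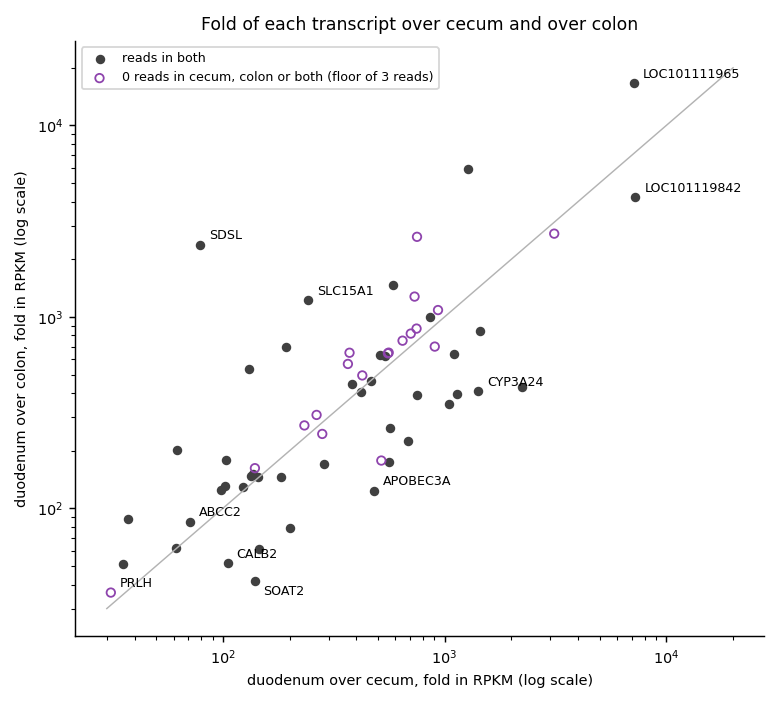
Fold of duodenum over cecum (x axis) and of duodenum over colon (y axis) for each of the 62 transcripts, both on log scales, with the line of equal folds. Open points are transcripts with 0 reads in the cecum, the colon or both, placed at the floor of 3 reads, and SDSL (79.2 over cecum, 2379 over colon) and SOAT2 (139 and 41.8) lie on either side of the line.

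The 32 transcripts with neither a symbol nor a pathway list held 1517 of the 2814 summed RPKM in the duodenum. With the longest transcript of each overlapping group they were 28 and held 1140 of 2157. The 28 still include XM_012120837.1 with 21.7 RPKM, which overlaps the named ONECUT2. Apart from XM_012172967.1, the highest were XM_012127692.1 with 301 RPKM (0 reads in the cecum and 4 in the colon), XM_012168651.1 with 220 RPKM (39.9 and 18.5 reads) and XM_004009012.2 with 141 RPKM (4 reads and 1 read). They were followed by XM_012173034.1 with 45.8 RPKM and XM_004017770.2 with 37.3 RPKM. The median of the 32 was 16.8 RPKM in the duodenum, and their models ranged from 182 to 13009 bases and from 1 to 68 exons. The remaining transcript without a symbol, XM_012145052.1 with 58 exons, had 10.6, 0.0725 and 0.173 RPKM. Its locus holds a transcript that the study placed under a membrane component.

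Exons were examined one by one. Of 771 exons, 769 had reads in duodenum, 216 in cecum and 225 in colon. RPKM was at least 1 in the duodenum for 751 exons, and each of these was higher in the duodenum than in the cecum and the colon. Over at least 90% of their length, 737 exons (95.6%) were covered by reads in the duodenum. The median length was 2111 bases with 9 exons, beside 2102 bases and 9 exons over the 7780 messenger RNA transcripts with RPKM of at least 10 in the duodenum. Shared exons were resolved over all 7780 here, which keeps 58 of the transcripts described. Of the 7780, 62 were at most 0.5 RPKM in the large intestine, those 58 among them, 20 reached 0.5 to 1, 96 reached 1 to 5, 476 reached 5 to 10 and 7126 were above 10 in the higher of the 2 regions.

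Restriction of a transcript model was not always restriction of its locus. Transcripts joined by shared exons formed loci, and the locus as a whole was within the same limits for 43 of the 62. For 15 the locus was under 10 RPKM in the duodenum only, and for 4 it was above 0.5 in the large intestine. Among the 15 were NPC1L1, with 3.36 RPKM in the duodenum over its locus, CES3 with 8.34 and ABCC2 with 9.71. XM_012168651.1 and XM_012173034.1, 5.19 kb apart, belong to 1 locus with 139 RPKM in duodenum, 40.5 in cecum and 36.9 in colon. There, 2 transcripts without exons in common with them were higher in the large intestine: XM_012102406.1 had 68.0, 118 and 110 RPKM, and XM_012171958.1 had 79.2, 139 and 129. The locus of LOC101107119 held 13 transcripts with 44.2, 14.7 and 18.5 RPKM in all, of which XM_012188622.1 had 119, 48.7 and 58.5. The locus of XM_012172885.1, whose own model had 12.2, 0.328 and 0.140 RPKM, had 28.4, 1.93 and 0.404. For the last of these models, 368 of the 405 reads in the duodenum lay on 1 exon.

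Positions also showed neighbours. Exons overlapping by position joined 11 transcripts, so that the 62 fell into 56 groups, and 15 pairs without overlap lay within 200 kb of each other. Besides the pairs named above, XM_012121123.1 and XM_012095545.1 were 89.6 kb apart, and XM_012109803.1 and XM_012096115.1 were 14.8 kb apart. Since the files give no chromosome, a short distance is not proof of neighbourhood: SLC7A9 and LOC101107119 were 120 kb apart in position and on different chromosomes in the reference annotation.

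The limits cut through a continuous range. Just inside the duodenum limit lay XM_012173297.1 with 10.1 RPKM, XM_004004464.2 with 10.2 and NPC1L1 with 10.3, and just outside it lay XM_012141191.1 with 9.86, XM_012101118.1 with 9.51 and TRPV6, the calcium channel of the brush border, with 9.33. At the large intestine limit, APOBEC3A was inside with 0.480 RPKM, XM_012127685.1 with 0.435 and XM_012147942.1 with 0.430. Outside it were FABP2 with 0.503 RPKM, XM_004018159.2 with 0.561 and XM_012153956.1 with 0.607. FABP2, the intestinal fatty acid binding protein, was one of the 5 transcripts set aside, and the other 4 were within the limits.

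To place these transcripts in their pathways, lists of genes were counted in which the members named above are a minority. The lists were chosen with earlier results of these data known. A gene was counted when its RPKM, over all exons of its symbol, was at least 2-fold higher or lower in the duodenum than in both other regions. Of 5720 genes with a symbol that reached 1 RPKM in any region, 5.3% were higher and 6.28% lower, with a median log2 ratio of -0.05 over the cecum and 0.06 over the colon. Of 16 genes of fat absorption and lipoproteins, 11 were higher and 0 lower, with median log2 ratios of 5.99 and 5.09. APOC3, NPC1L1 and SOAT2 are 3 of them and were chosen by this same contrast. FABP2, also counted as higher, belongs to a transcript set aside by name in the rule. The other 4 set-aside transcripts met the same limits, 1 of them in the locus of APOC3, so any of their genes in the list are no independent evidence either. Of 10 genes of drug and steroid metabolism, 7 were higher and 0 lower (medians 4.04 and 4.05), including the chosen CYP3A24, CES3 and ABCC2.

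Further lists of duodenal functions also held more genes higher than lower or were split. Of 9 genes of the brush border enzyme list 6 were higher and 0 lower. The 2 higher at 4-fold were FOLH1 and TM4SF20, of which TM4SF20 is a membrane protein and not an enzyme. Of 10 genes of enteroendocrine cells 7 were higher and 0 lower (4 higher at 4-fold). Of 8 genes of vitamin A, calcium and iron handling 3 and 0 passed, and of 3 genes of the urea cycle 2 and 0. Nutrient transporters were split, with 6 of 15 higher, SLC15A1 and SLC7A9 among them, and 4 lower. SLC5A1 passed in neither direction, with 71.4 RPKM in duodenum, 41.3 in cecum and 51.9 in colon. Regional transcription factors were split as well, with 4 of 13 higher and 4 lower (at 4-fold, 2 lower). Many symbols of these lists could not be paired with the files, so the counts cover only part of each pathway.

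**Figure D4:**
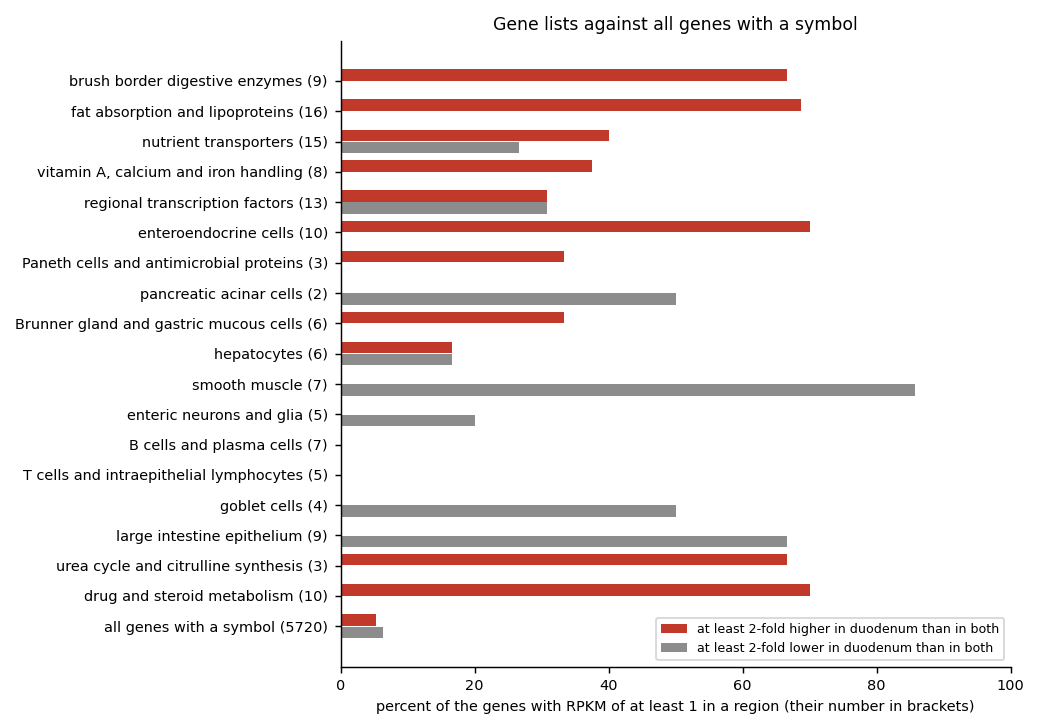
Percent of the measured genes of each list (number in brackets) with RPKM at least 2-fold higher (red) or lower (grey) in the duodenum than in both the cecum and the colon. The bottom bars give all 5720 genes with a symbol, at 5.3% and 6.28%, and the 9 genes among the 62 transcripts that stand in a list had to be higher.

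Markers of other cells moved between the libraries too, and their part in the results above was not tested. Of 7 smooth muscle genes, 6 were lower in the duodenum (1 at 4-fold) and 0 higher, with summed RPKM of 1028 in duodenum, 4895 in cecum and 3446 in colon. Of 9 genes of large intestine epithelium 6 were lower (3 at 4-fold) and 0 higher, and of 4 goblet cell genes 2 and 0. Among these lower genes, the study had already reported ST6GALNAC6, SLC16A1 and the goblet cell gene SPINK4 as higher in the large intestine. The counts are therefore not independent of earlier results from these libraries. Of 7 genes of B cells and plasma cells 0 passed in either direction against both regions, but against the colon alone 2 were higher and 3 lower. The summed RPKM of that list was 6812 in duodenum, 3803 in cecum and 810 in colon, most of it JCHAIN, the joining chain of secreted antibodies, with 6626, 3659 and 663. Of 5 T cell genes 0 passed against either region, and of 5 genes of enteric neurons and glia 1 was lower. Of 3 Paneth cell genes 1 was higher and 0 lower.

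Most markers of pancreas and liver that could be paired were low, but only 6 of 29 acinar genes and 12 of 21 hepatocyte genes were paired. The pancreatic enzymes CPA1, CEL and PNLIP had 0.0502, 0.173 and 0.208 RPKM in the duodenum, and the summed 1791 RPKM of the 6 paired genes of acinar cells was almost all SPINK1, a protease inhibitor that was higher in the cecum (4820) and the colon (4180). Of the 2 acinar genes that could be counted 1 was lower. The liver protein ALB had 0.986 RPKM in duodenum, 0.0221 in cecum and 0.476 in colon. Of 6 hepatocyte genes 1 was higher, the urea cycle enzyme OTC with 54.9, 0.142 and 0.987 RPKM, and 1 lower, and the summed RPKM of the list was 70.6, 17.9 and 40.9. Of 6 genes of Brunner glands and gastric mucous cells 2 were higher. These were TFF1 and GKN1. TFF1 had 15.8 RPKM in the duodenum, 0 reads in the cecum and 1.09 RPKM in the colon, and GKN1 had 1.97, 0.0773 and 0.0665 RPKM. The summed RPKM of that list was 4486, 5248 and 130594. The sum was set in the colon by TFF2, and in the duodenum mostly by TFF3 (2981) and TFF2 (1470).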

How the data were processed

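Small-tailed Han sheep libraries of the duodenum, cecum and colon were analysed, 1 pooled library of 3 ewes each. The Texel libraries of the study were not analysed here. The authors deposited, for each exon of each annotated transcript, an expected count of reads (an estimated count, mostly not whole), the exon RPKM scaled to a read total in the header, the exon length and the percent of the exon covered. These totals were 50832279 reads in duodenum, 46311533 in cecum and 53827214 in colon, so the floor of 3 reads is 5.90e-06%, 6.48e-06% and 5.57e-06% of them. Exons under 1 read are absent and were taken as 0. The methods name Bowtie2 and RSEM on sheep genome v4.0, whereas the submitters' processing notes name BWA and Bowtie 0.12.2. The build of the exon tables is not given in the sources used here.

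Counts were summed over the exons of a transcript and scaled by summed length and the header total. The rule was applied in the order limits, shared exons (same start, end and reads), set-aside transcripts. Members and gene lists were chosen with earlier results of these data known. Symbols were taken from RefSeq's ARS-UI_Ramb_v3.0 annotation, which paired 8735 of 83089 transcripts (10.5%) by identifier, so no coordinates of that annotation are given. Named were the 15 highest members, members of a gene list and those nearest the limits, and the other members with a symbol or a pathway, those with unusual exons and the marker genes were added after their values were seen. Intervals are Clopper-Pearson intervals at 95%, exact only if the rounded counts were separate reads. Promoter and protein sequences were not used here. No test between regions was made, since each region has 1 library. The rule was tested on simulated data. Limits, scaling, exon summary and the handling of shared exons were varied. Figures were drawn with matplotlib 3.10.9, and values were computed in Python 3.11.15 with scipy 1.17.1, pandas 2.3.3 and numpy 2.4.6.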

Additional observations from a re-analysis of the deposited data

Results flagged for a closer look

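Transcripts annotated as non-coding were outside the 62, and 9 of 14271 met the same RPKM limits, which flagged them as a signal in data not otherwise described. Of these 9, 5 belong to the loci of members described above and 4 do not. The highest of the 4 was XR_001042619.1, with 71.9 RPKM in duodenum, 0.208 in cecum and 0.215 in colon. XR_001040246.1, 84 bases long, had 61.6 RPKM from 263 reads in duodenum, 0 reads in cecum and 2 reads in colon. XR_001041748.1 and XR_001021393.1 had 21.7 and 17.0 RPKM in the duodenum.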

How the results depend on the processing

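The number of 62 transcripts depended on the limits. It was 118 with limits of 5 and 1 RPKM, 23 with 20 and 0.2, 182 with a 20-fold ratio and RPKM of at least 1, and 155 when every transcript was counted despite shared exons. It stayed within 1.5 times with loci in place of transcripts (43), with reads scaled to the sum over distinct exons (49), with median-ratio factors (62) and with the median exon (64). In alternatives chosen after seeing the data, setting the named transcripts aside first gave 65, and counting overlapping transcripts once gave 56. Scaling to the reads of distinct exons lowered the summed RPKM to 2084, 4.14 and 3.98 in duodenum, cecum and colon, and the duodenum share to 0.386%, while whole loci gave 0.721%. With the longest transcript of each overlapping group, also chosen after seeing the data, the summed RPKM was 2157 in the duodenum. A pseudocount of 1 RPKM lowered the median log2 ratio from 8.73 to 4.25 over the cecum and from 8.65 to 4.22 over the colon. With under 3 reads counted as none, transcripts without reads rose from 11 to 18 in the colon and from 8 to 14 in both. Of 36 gene list counts, 7 moved by more than 1.5 times with RPKM of at least 10 and 8 with a fold of 4, and 0 with median-ratio factors. At 10 RPKM the genes higher than in both regions fell from 6 to 3 in the brush border enzyme list. For enteroendocrine cells they fell from 7 to 3. At 4-fold the counts of these lists were 2 and 4. Smooth muscle genes lower than in both fell from 6 to 1 at 4-fold. With 1 library per region no replicate could be left out. No paired analysis was possible because each region has 1 library.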
